A study of Caenorhabditis elegans with 59 samples.

Results

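The 6 genes described here, bath-45 (F29C12.5), B0250.8, T26E3.7, Y53F4B.5, Y57G11C.499 and Y48G1BM.8, are Caenorhabditis elegans genes whose small RNA was low and whose mRNA was high in prg-1(n4357) mutants. In prg-1(tm872) mutants, where mRNA was not measured, T26E3.7 and Y48G1BM.8 kept 72.9% and 24.9% of their wild-type small RNA. The 6 genes were picked by gene name from values of prg-1 mutants, so their difference between prg-1 and the wild type is a description here and carries no test. All 6 were listed in every table, among 22099 genes in the polyA and generation 1 mRNA tables, 23176 in the generation 50 mRNA table, and 20475, 12423 and 6991 in the generation 1, prg-1(tm872) and generation 50 small RNA tables. bath-45 encodes a protein of the BTB and MATH domain family, whose known members join substrates to a cullin ubiquitin ligase, and it has served in the field as a readout of piRNA silencing. The others have a sequence name alone in the tables used, and RefSeq (assembly WBcel235) lists all as protein coding except Y48G1BM.8, a pseudogene. By that annotation Y53F4B.5 and bath-45 lie on chromosome II, T26E3.7 and Y48G1BM.8 on chromosome I, B0250.8 on chromosome V and Y57G11C.499 on chromosome IV.

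piRNAs are short germline RNAs bound by the PIWI Argonaute PRG-1, which finds transcripts that pair with the piRNA. RNA-dependent RNA polymerases then copy the recognised transcript into secondary small RNAs that begin with guanine, a step for which the DEAD-box RNA helicases MUT-14 and SMUT-1 of the perinuclear mutator foci are needed. These secondary small RNAs are loaded onto worm-specific Argonautes (WAGOs), which keep the target silent in the cytoplasm and the nucleus. Secondary small RNAs carry a 5′ triphosphate, which polyphosphatase treatment makes ligatable, and the small RNA here was treated in this way.

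Whole gravid adults grown at 20 °C were compared. The genotypes were a triple mutant, which joins prg-1(n4357) on chromosome I to mut-14(mg464) and smut-1(tm1301) on chromosome V, prg-1(n4357) alone, the double mutant mut-14(mg464) smut-1(tm1301), whose strain also carries unc-119(ed3) on chromosome III, and the N2 wild type. Each genotype is 1 strain, so a background allele of a strain cannot be told apart from its named alleles. Generation 1 animals were 72 h old, and generation 50 animals came from 3 lines per genotype. prg-1(tm872), a second deletion of prg-1, was compared with its own wild type at 68 h, by small RNA alone. PolyA-selected RNA was compared with total RNA in wild-type animals of 72 h. Every group had 3 libraries except mut-14 smut-1 in generation 1 small RNA, which had 2. Whether replicates of generation 1 were separate cultures is not stated, so p-values may measure technical spread alone.

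Depth ran from about 12052982 to 63847403 reads per mRNA library. Small RNA libraries of generation 1 held 224056 to 760735 counted reads in the triple mutant and mut-14 smut-1, and 1300861 to 2117438 in prg-1 and the wild type. Those of the prg-1(tm872) comparison held 1533620 to 2452755, and those of generation 50 held 4417660 to 13038182. Behind the small RNA values of the 6 genes in generation 1 stood 1 to 80 reads per gene and library in the triple mutant, 6 to 184 in prg-1, 17 to 221 in mut-14 smut-1 and 2684 to 15614 in the wild type. Values are the authors' normalized counts, and levels are compared within a gene and within a table only, because each table was scaled separately. The targeted genes followed the labels: in generation 1, mut-14 mRNA averaged 39.2 ± 7.30 normalized counts in the triple mutant and 42.7 ± 5.82 in mut-14 smut-1, with 1447 ± 40.4 in prg-1 animals and 1810 ± 53.0 in wild-type animals (SD, n = 3 each). prg-1 mRNA averaged 2708 ± 107 in the triple mutant and 3906 ± 81.4 in prg-1. It stood at 7635 ± 303 in mut-14 smut-1, against 10339 ± 315 in the wild type.

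In generation 1 small RNA a pair of libraries stood apart at these genes. prg-1 library 1 was the highest of its group for all 6 genes, at 4.30 to 7.95 times the mean of the other prg-1 libraries. Triple mutant library 3 was likewise highest for all 6, at 4.69 to 26.3 times the mean of the other triple mutant libraries. Over the 2313 features whose small RNA was at least 2-fold lower in prg-1, the median ratio of the same libraries to their group was 1.15 and 1.07. That limit lets in features that fell far less than the 6 genes. Whether other genes that fell as far also stood high in these libraries was not tested. For the 6 genes, differences or calls of prg-1 and the triple mutant in this small RNA are given below with and without these libraries. Other results that use it, on other genes, neighbours, gene lists and the ranking by likeness, keep all libraries. So do the limma p-values of mut-14 smut-1 against the wild type, whose spread is shared by all groups of the fit.

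In generation 1 all 6 genes had far more mRNA in prg-1 than in the wild type, at 14.3 to 76.0 times the wild-type mean. bath-45 mRNA stood at 1066, 1015 and 1093 normalized counts in prg-1, against 57.5, 51.0 and 60.8 in the wild type. B0250.8 had 596, 557 and 614 in prg-1, against 15.5, 15.1 and 23.1 in the wild type. T26E3.7 had 388, 390.1 and 342 in prg-1, against 9.45, 10.4 and 7.34 in the wild type. No prg-1 library came near a wild-type library for these genes, and the prg-1 libraries lay close together. For Y53F4B.5 the values were 113, 122 and 135 in prg-1, against 1.72, 0 and 3.15 in the wild type, where it was barely detected. Y57G11C.499 reached 207, 272 and 199 in prg-1, against 7.73, 8.49 and 7.34 in the wild type. Y48G1BM.8, the annotated pseudogene, reached 439, 431 and 421 in prg-1, against 26.6, 30.2 and 33.6 in the wild type. On the log2(value + 1) scale the differences ran from 3.80 (Y48G1BM.8) to 5.79 (Y53F4B.5), and they ranked 3, 7, 10, 12, 19 and 26 among the increases of 14618 features tested. All 6 were higher in prg-1 without overlap, a state shared by 27.2% of all features, and nothing is read from that count because the genes were chosen on it.

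Their small RNA went the other way. B0250.8 had 209, 28.8 and 23.7 normalized small RNA counts in prg-1, against 7607, 7905 and 8389 in the wild type. bath-45 had 187, 46.4 and 40.5 in prg-1, against 7406, 7565 and 7565 in the wild type, and T26E3.7 had 77.1, 12.1 and 8.89 in prg-1, against 4102, 4049 and 4050.5 in the wild type. In each of these genes the first prg-1 library is the high one, yet it stays far below every wild-type library. Y48G1BM.8 followed the same pattern, with 65.8, 14.9 and 5.93 in prg-1, against 3172, 3160.3 and 3224 in the wild type. Y53F4B.5 had 54.4, 6.50 and 12.8 in prg-1, against 2400.1, 2344 and 2432 in the wild type. Y57G11C.499 had 65.8, 15.8 and 5.93 in prg-1, against 2203, 2374 and 2436 in the wild type. The group means were 80.2 to 124 times lower in prg-1, with log2 differences of -7.56 to -6.71, and of -8.48 to -7.40 without prg-1 library 1. Each gene was left with 1.90% to 2.81% of its wild-type mean in prg-1 library 1, 0.272% to 0.675% in library 2 and 0.186% to 0.539% in library 3. Non-overlap in this direction held for 43.0% of all features.

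**Figure D1:**
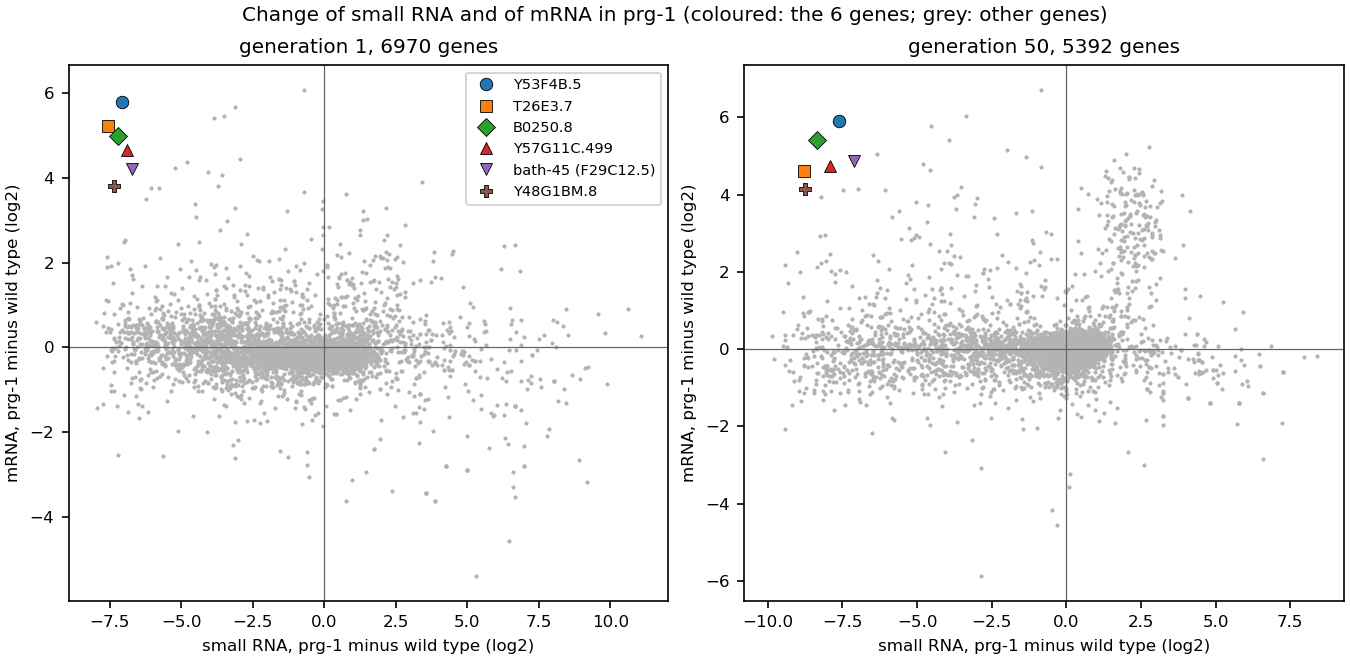
Change of small RNA (x axis, log2 difference, prg-1 minus wild type) against change of mRNA (y axis, log2 difference, prg-1 minus wild type) for every gene tested in both tables, in generation 1 (left) and generation 50 (right). The 6 genes (coloured symbols) lie in the upper left corner, with small RNA differences of -7.56 to -6.71 and mRNA differences of 3.80 to 5.79 in generation 1.

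Loss of small RNA of this size was far from always accompanied by a higher mRNA. In generation 1, 82 other genes had a small RNA difference at or below -6.71, that of bath-45, the member that lost least. Of these, 13 (15.9%) had mRNA at least 2-fold higher in prg-1 and 8 had mRNA at least 2-fold lower. None reached the 3.80 of Y48G1BM.8, the smallest mRNA difference among the 6, and their median mRNA difference was 0.25, beside -0.20 over all 6970 genes in both tables. In generation 50, 183 other genes had a small RNA difference at or below -7.13. Of these, 22 (12%) had mRNA at least 2-fold higher and 17 at least 2-fold lower, with a median of -0.06 beside 0.04 over all 5392 genes. Again none reached the smallest mRNA difference among the 6, which was 4.15. Since the 6 genes were picked for both changes together, these counts describe where they stand and test nothing. The shares of all genes past the same 2-fold limits were not computed, so the 15.9% and 12% cannot be called high or low.

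After 50 generations the mRNA of the 6 genes was still 18.3 to 77.5 times the wild-type mean in prg-1, and their small RNA 134 to 416 times lower. bath-45 mRNA was 2002, 1814 and 2791 in the 3 prg-1 lines, against 84.1, 77.6 and 60.0 in the wild-type lines. Y53F4B.5 mRNA was 180.4, 271 and 192 in prg-1, against 1.40, 4.63 and 2.26 in the wild type. No prg-1 line overlapped with a wild-type line for any of the 6 genes. B0250.8 mRNA was 643, 946 and 915 in prg-1, against 21, 13.9 and 20.4 in the wild type, and T26E3.7 mRNA was 561, 484 and 795 in prg-1, against 22.4, 23.2 and 24.9 in the wild type. Y57G11C.499 mRNA was 503, 466 and 507 in prg-1, against 16.8, 12.7 and 23.8 in the wild type. Y48G1BM.8 again showed the smallest difference (log2 of 4.15), with 321, 396 and 379.7 in prg-1, against 21, 24.3 and 14.7 in the wild type. Non-overlap on the high side held for 19.0% of all features in this table.

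Small RNA of bath-45 in generation 50 was 227, 114 and 240.1 in the prg-1 lines, against 24059, 27551 and 25990.2 in the wild-type lines. B0250.8 had 88.0, 63.8 and 48.0 in prg-1, against 20461, 22429.5 and 21996 in the wild type, and T26E3.7 had 56.5, 20.4 and 33.3 in prg-1, against 14830.4, 15879 and 15183 in the wild type. None of the prg-1 lines had regained small RNA at these genes, and the prg-1 lines kept 0.106% to 0.928% of the wild-type mean. For Y48G1BM.8 the values were 41.9, 20.4 and 9.80 in prg-1, against 8633, 9732 and 9314 in the wild type. Y53F4B.5 had 62.8, 40.7 and 38.2 in prg-1, against 8655, 9995 and 9205 in the wild type, and Y57G11C.499 had 45, 24.1 and 21.6 in prg-1, against 6731, 7659.8 and 7194 in the wild type. The log2 differences ran from -8.78 to -7.13, beside a median of -1.84 over all features, which here include the piRNAs themselves. Lower small RNA in prg-1 without overlap was seen in 58.9% of all features. The authors' classification in this table puts all 6 genes in its class named mut, which holds 2243 entries.

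A pair of annotated piRNA genes overlaps Y57G11C.499 in RefSeq. In generation 50 small RNA, 21ur-6011 was listed at 0 in all 3 prg-1 lines, against 37.6, 33.5 and 28.4 normalized counts in the wild type. The other, 21ur-11278, was listed at 0 in prg-1, against 3.13, 2.68 and 1.35 in the wild type. In the triple mutant both were listed at 0 in every line. In mut-14 smut-1, 21ur-6011 was present, at 99.3, 73.9 and 31.1. The other 5 genes overlap no annotated gene in that annotation.

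The second deletion allele gave a split result. In prg-1(tm872), T26E3.7 kept 72.9% of its wild-type small RNA, at 5213, 5395 and 5168 normalized counts, against 6889.7, 7544 and 7208 in the wild type. Y48G1BM.8 kept 24.9%, at 1264, 1244 and 1269, against 4910.1, 5336 and 4905 in the wild type. Both values repeated closely over the 3 libraries. The other 4 genes kept 0.792% to 1.18%. B0250.8 had 155, 66.6 and 120.0 in prg-1(tm872), against 12720.2, 14299 and 12829.9 in the wild type. bath-45 had 219, 108 and 110.4, against 11781, 13242 and 11990.2 in the wild type. Y53F4B.5 had 38.1, 24.3 and 38.2 in prg-1(tm872), against 3594, 4053 and 3819 in the wild type. Y57G11C.499 had 37.1, 13.8 and 41.4 in prg-1(tm872), against 3619.5, 4189 and 3833 in the wild type. All 6 were lower than the wild type without overlap, as were 42.5% of all features, and this contrast took part in choosing the genes, so no test is given.

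T26E3.7 and Y48G1BM.8 are the members on chromosome I, where prg-1 itself is placed by the labels. To set them beside other genes, all 98 genes were taken whose small RNA in prg-1(n4357) of generation 1 was as low as that of bath-45 or lower, relative to the wild type, and whose wild-type mean in the tm872 table was at least 10. Among the 92 that are not members, 4 kept 20% or more in prg-1(tm872), a limit chosen after the values were seen, and the median kept was 0.646%. The 4 were C30G12.1 on chromosome II, which kept 142%, linc-29 on chromosome IV with 101%, F59H6.14 on chromosome II with 91.3% and anmt-1 on chromosome III with 80.4%. The 8 others on chromosome I kept 0.424% to 0.806%, none of them near the values of T26E3.7 and Y48G1BM.8. Positions along the chromosome were not compared, and whether nearness to prg-1 plays a part was not tested. Animals of the tm872 comparison were 68 h old and those of generation 1 were 72 h old, and age, strain and allele cannot be told apart between these tables.

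**Figure D2:**
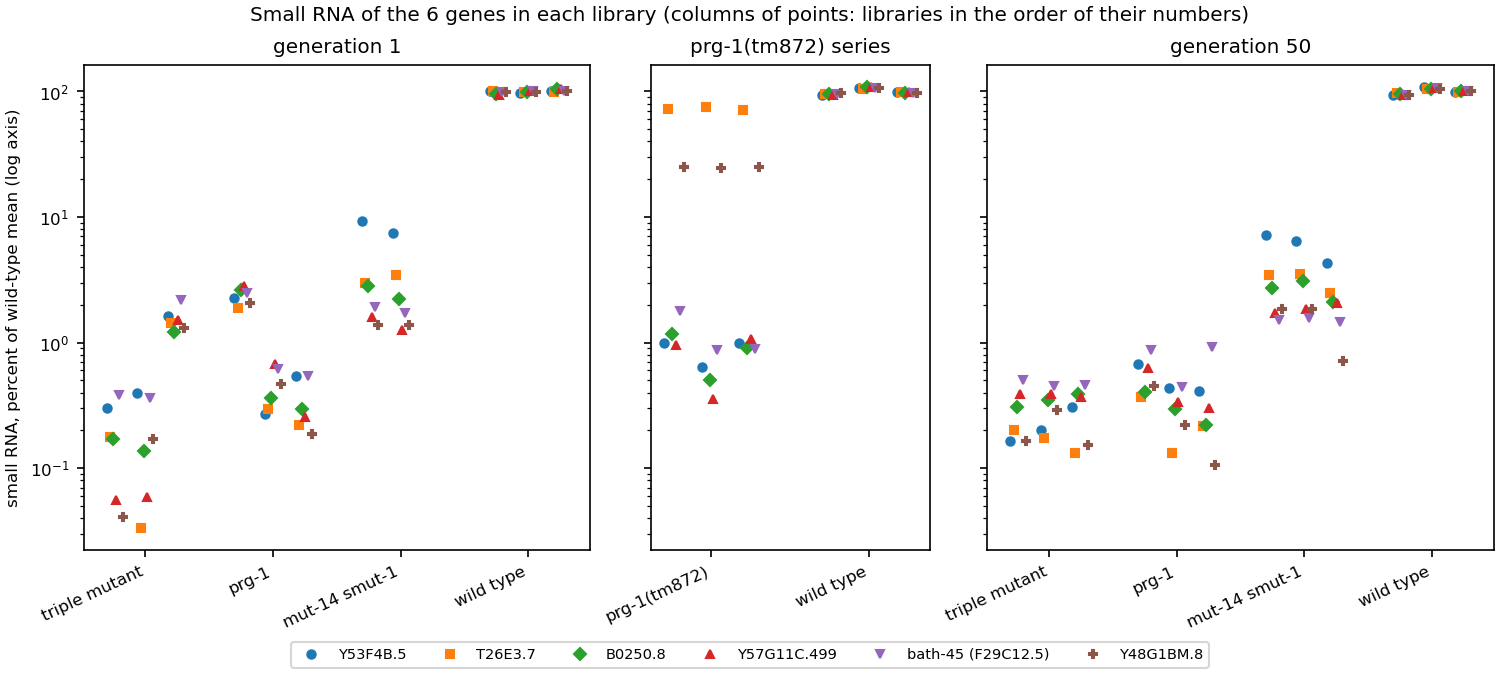
Small RNA of the 6 genes in each library as a percentage of the wild-type mean of its table (log axis), for generation 1, the prg-1(tm872) comparison and generation 50. Within a genotype each column of symbols is 1 library. prg-1 library 1 and triple mutant library 3 of generation 1 sit above their groups, and T26E3.7 and Y48G1BM.8 stay at 72.9% and 24.9% in prg-1(tm872).

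Animals without the mutator helicases also had more mRNA and less small RNA of the 6 genes than the wild type. The mut-14 smut-1 libraries took no part in choosing the genes, but the wild-type libraries did, so this test is not independent of the choice. In generation 1, mRNA was 2.02 to 38.5 times the wild-type mean in mut-14 smut-1, and all 6 passed the test as higher (limma, Benjamini-Hochberg adjusted p under 0.05), as did 38.1% of the 14618 features tested. bath-45 mRNA was 307, 294 and 292 in mut-14 smut-1, where it rose by 2.38 ± 0.08 (SE) on the log2 scale over the wild type (limma adjusted p = 1.94e-13). Y53F4B.5 rose most, by 4.79 ± 0.36, with 57.0, 79.6 and 50.5 in mut-14 smut-1 (limma adjusted p = 6.80e-09). B0250.8 rose least, by 0.98 ± 0.17, with 33.7, 45.8 and 29.1 (limma adjusted p = 5.48e-05). T26E3.7 had 55.4, 64.3 and 61.6, Y57G11C.499 had 46.6, 32.7 and 36.0 and Y48G1BM.8 had 166, 155 and 186 in mut-14 smut-1, with log2 differences of 2.62, 2.14 and 2.45. With so many features passing in this direction, the count says little beside the sizes. The median difference over all features was 0.04 and over the 6 genes 2.42.

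Small RNA of the 6 genes was 12 to 72.4 times lower in mut-14 smut-1 than in the wild type in generation 1, and all 6 fell (limma), beside 46.9% of all features. Y53F4B.5 retained most, with 222 and 177 normalized counts in mut-14 smut-1, or 8.34% of the wild-type mean (log2 difference -3.59 ± 0.79 SE, limma adjusted p = 0.00217). Y48G1BM.8 retained least, with 43.9 and 44.1, or 1.38% (log2 difference -6.15 ± 1.10 SE, limma adjusted p = 5.53e-04). B0250.8 had 224 and 177, T26E3.7 had 121 and 139.6, bath-45 had 145 and 130.0 and Y57G11C.499 had 37.3 and 29.7. The median difference was -5.54 over the 6 genes and -0.47 over all features.

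Set side by side, the mRNA of all 6 genes was lower in every mut-14 smut-1 library than in any prg-1 library of generation 1, as was that of 31.3% of all features. In generation 50 this held for 5 of the 6, beside 12.7% of all features, the exception being Y57G11C.499. Small RNA of generation 50 was higher in every mut-14 smut-1 line than in any prg-1 line for all 6. So it was for 54.9% of all features, which in generation 50 small RNA include the piRNAs themselves. In generation 1, small RNA was higher without overlap for 2 of 6, T26E3.7 and Y53F4B.5, beside 21.3% of all features. Without prg-1 library 1, left out after seeing the data, it was higher without overlap for all 6. The mut-14 smut-1 libraries kept 1.27% to 9.27% of the wild-type mean, and prg-1 libraries 2 and 3 kept 0.186% to 0.675%. The share of all features was not computed without that library. Both mutants were compared with the same wild type, and this pair was not fitted as a contrast.

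In generation 50, mRNA of the 6 genes was 5.36 to 38.3 times the wild-type mean in mut-14 smut-1, and all 6 rose (limma), beside 16.5% of the 16328 features. The median difference was 2.96 over the 6 genes and 0.01 over all features. bath-45 had 752, 619 and 985 in the mut-14 smut-1 lines and rose by 3.38 ± 0.21 (limma adjusted p = 3.68e-06). Y53F4B.5 had 125, 90.6 and 102 and rose by 4.91 ± 0.33 (limma adjusted p = 5.78e-06). The mut-14 smut-1 lines differed from each other at several genes. Y57G11C.499 mRNA was 125, 86.9 and 496 in mut-14 smut-1 lines 1 to 3, so line 3 stood within the range of the prg-1 lines. Line 3 was also the highest for T26E3.7, with 82.8, 90.6 and 204, and for B0250.8, with 100.2, 36.2 and 206. The same held for bath-45 and Y48G1BM.8, but not for Y53F4B.5. Line 2 was the lowest for Y48G1BM.8, with 173, 67.0 and 181. In small RNA, line 3 was the lowest for every one of the 6 genes except Y57G11C.499, for which it was the highest. Its median ratio to the other mut-14 smut-1 lines was 0.719 over the 6 genes. Over features at least 2-fold lower in prg-1, piRNAs included, that ratio was 0.843. Y57G11C.499 had 123, 133 and 148, T26E3.7 had 524, 536 and 383 and B0250.8 had 588, 676 and 452 small RNA counts in lines 1 to 3.

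Small RNA of all 6 fell in mut-14 smut-1 of generation 50 too (limma), beside 26.0% of all features, to levels 16.8 to 68.1 times lower than in the wild type. Y53F4B.5 again retained most, with 667, 597 and 397 or 5.97% of the wild-type mean (log2 difference -4.10 ± 0.26 SE, limma adjusted p = 6.56e-08). Y48G1BM.8, with 171, 169.6 and 65.8, and bath-45, with 393, 405 and 376, retained 1.47% and 1.51%. The order of the 6 genes by the share retained in mut-14 smut-1 was Y53F4B.5, T26E3.7, B0250.8, then the 3 others in both generations. The 2 generations were measured in separate libraries of the same strains. Median differences were -5.49 over the 6 genes and 0.66 over all features, which here include the piRNAs.

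**Figure D3:**
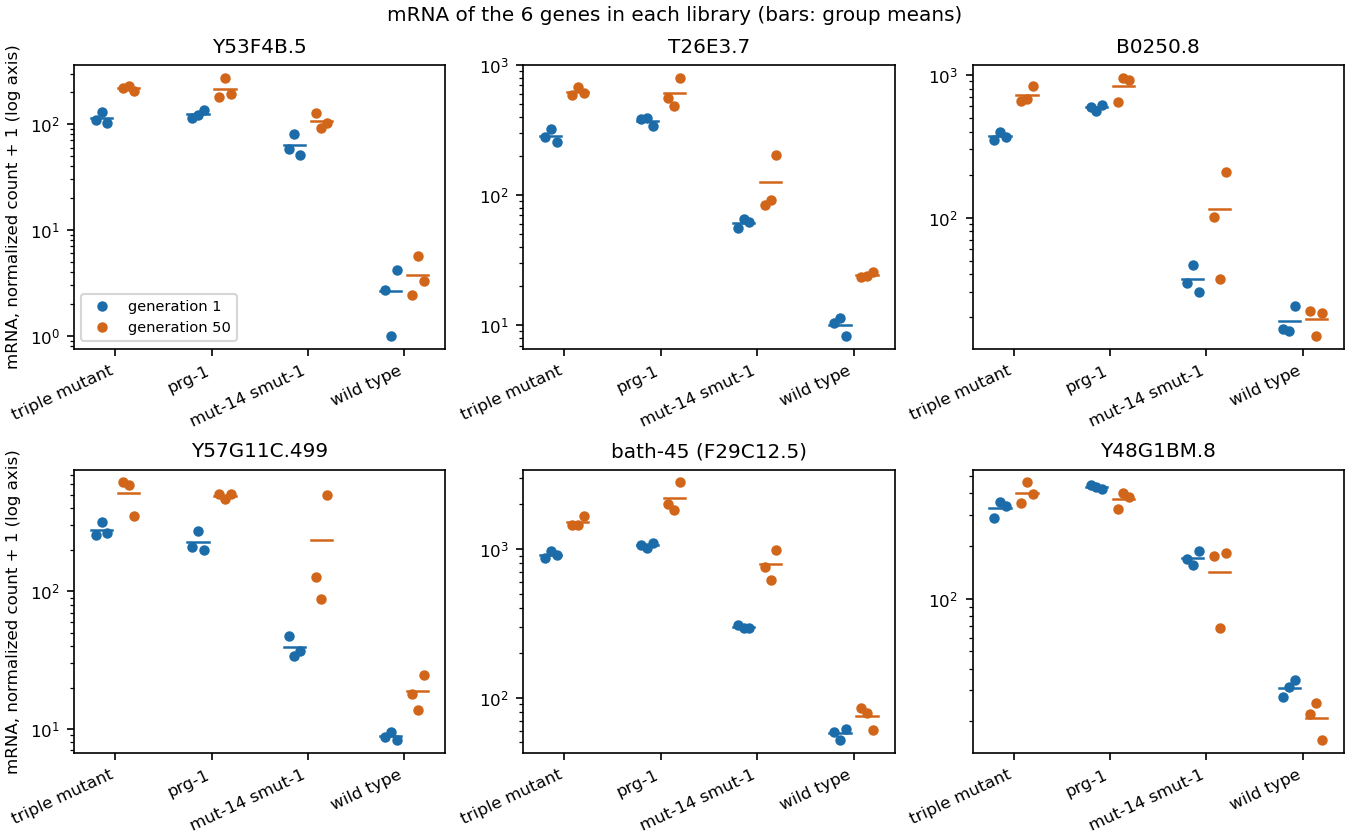
mRNA of each of the 6 genes in every library, as normalized count + 1 on a log axis, for the triple mutant, prg-1, mut-14 smut-1 and the wild type, in generation 1 (blue) and generation 50 (orange). Bars are group means. Every mut-14 smut-1 library lies between the prg-1 and wild-type libraries, except for Y57G11C.499 in line 3 of generation 50, at 496 normalized counts.

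The triple mutant had more mRNA of these genes than mut-14 smut-1. In generation 1, 5 of the 6 rose in the triple mutant relative to mut-14 smut-1 (limma), beside 6.01% of all features, and the median difference was 1.92 over the 6 and -0.02 over all features. B0250.8 had 350.3, 399 and 365 in the triple mutant, against 33.7, 45.8 and 29.1 in mut-14 smut-1, the largest difference of the 6 (log2 difference 3.35 ± 0.17 SE, limma adjusted p = 5.52e-10). Y57G11C.499 had 256, 318 and 261 in the triple mutant, against 46.6, 32.7 and 36.0 in mut-14 smut-1 (log2 difference 2.83 ± 0.17 SE, limma adjusted p = 5.76e-09). T26E3.7 had 279, 320.0 and 257, against 55.4, 64.3 and 61.6 in mut-14 smut-1 (log2 difference 2.22 ± 0.14 SE, limma adjusted p = 1.29e-08). These 3 genes were 4.73 to 10.3 times higher in the triple mutant, with libraries far apart. bath-45 had 859.7, 971 and 908 in the triple mutant, against 307, 294 and 292 in mut-14 smut-1 (log2 difference 1.61 ± 0.08 SE, limma adjusted p = 2.33e-10). Y48G1BM.8 had 285, 354 and 336, against 166, 155 and 186 in mut-14 smut-1 (log2 difference 0.94 ± 0.11 SE, limma adjusted p = 2.22e-05). Y53F4B.5, the gene with the largest difference between mut-14 smut-1 and the wild type, had 108, 129 and 102 in the triple mutant, against 57.0, 79.6 and 50.5 in mut-14 smut-1, and did not pass (log2 difference 0.87 ± 0.36 SE, limma adjusted p = 0.14), although its libraries did not overlap. The triple mutant strain is not labelled as carrying unc-119(ed3), and unc-119 mRNA averaged 58.1 ± 10.3 in it, against 27.7 ± 3.35 in mut-14 smut-1 (SD, n = 3 each), so the prg-1 and unc-119 differences of this comparison cannot be told apart.

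Relative to prg-1, the triple mutant had slightly less mRNA of 4 genes in generation 1 (limma), beside 28.2% of all features. The prg-1 libraries took part in choosing the genes, for high mRNA and low small RNA, so no comparison with prg-1, in either RNA or generation, is independent of the choice. B0250.8 differed most, with 350.3, 399 and 365 in the triple mutant, against 596, 557 and 614 in prg-1, and fell by 0.66 on the log2 scale (SE 0.17, limma adjusted p = 0.0032). Y48G1BM.8 fell by 0.41 (SE 0.11, limma adjusted p = 0.0053), T26E3.7 by 0.39 (SE 0.14, limma adjusted p = 0.028) and bath-45 by 0.21 (SE 0.08, limma adjusted p = 0.0251). T26E3.7 and bath-45 no longer passed with scaling to library totals (limma adjusted p = 0.0858 and 0.224). They also missed it without triple mutant library 1, triple mutant library 3 or prg-1 library 1, when 2 genes were left. Without prg-1 library 2, T26E3.7 missed it alone, and without prg-1 library 3, bath-45 did. Y53F4B.5 and Y57G11C.499 did not pass in the main comparison, with log2 differences of -0.13 ± 0.36 and 0.31 ± 0.17 (SE) and limma adjusted p of 0.785 and 0.135.

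In generation 50, 4 genes rose in the triple mutant relative to mut-14 smut-1 (limma), beside 1.41% of all features, with a median difference of 1.57 over the 6 and -0.01 over all features. B0250.8 had 654, 672 and 832 in the triple mutant, against 100.2, 36.2 and 206 in mut-14 smut-1 (log2 difference 2.96 ± 0.48 SE, limma adjusted p = 0.0144). T26E3.7 had 593, 675 and 613, against 82.8, 90.6 and 204 in mut-14 smut-1 (log2 difference 2.43 ± 0.31 SE, limma adjusted p = 0.00499). bath-45, with 1449, 1449.6 and 1652 in the triple mutant, and Y48G1BM.8, with 349.9, 457 and 391, passed narrowly (log2 differences 0.97 ± 0.21 and 1.62 ± 0.35 SE, limma adjusted p = 0.0415 and 0.0403). The 4 calls were 2 with the line number as a block, without the filter on low values, with scaling to library totals, or without mut-14 smut-1 line 1. They were 1 without any one of the triple mutant lines, and 0 when the 2 groups were fitted alone. Y53F4B.5, with 220.3, 229 and 204 in the triple mutant, did not pass (log2 difference 1.04 ± 0.33 SE, limma adjusted p = 0.109). Y57G11C.499, with 615, 590.1 and 352, did not pass either (log2 difference 1.51 ± 0.52 SE, limma adjusted p = 0.13), and it is the gene whose mut-14 smut-1 lines overlapped with the triple mutant.

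Relative to prg-1, none of the 6 genes passed in generation 50 mRNA (limma), where 0.710% of all features passed in either direction, and 1 of the 6 (bath-45) had an unadjusted p under 0.05. No second tool was run on mRNA. The log2 differences ran from -0.52 (bath-45, SE 0.21, limma adjusted p = 0.502) to 0.13 (Y48G1BM.8, SE 0.35, limma adjusted p = 1.00), and the SE of the others was 0.31 to 0.52. Of the 6, bath-45 alone was lower in the triple mutant without overlap, as were 10.7% of all features, with 1449, 1449.6 and 1652 in the triple mutant, against 2002, 1814 and 2791 in prg-1.

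Small RNA of the triple mutant was close to the floor. In generation 1 the triple mutant libraries 1 and 2 kept 0.0336% to 0.40% of the wild-type mean, and library 3 kept 1.22% to 2.2%. Against mut-14 smut-1, 1 of 6 genes fell (limma), beside 3.18% of all features. That gene was Y53F4B.5, with 7.17, 9.57 and 39.2 in the triple mutant, against 222 and 177 in mut-14 smut-1 (log2 difference -3.72 ± 0.79 SE, limma adjusted p = 0.0218). Without triple mutant library 3 all 6 passed, with log2 differences of -4.90 to -2.25 and limma adjusted p of 0.00453 to 0.0384. They also passed without both that library and prg-1 library 1. Leaving out any other library of the 2 groups left none. The 3.18% is from the fit with all libraries, and the share of all features without triple mutant library 3 is not given here. A gain at the 6 genes therefore cannot be told apart from more calls over all features. bath-45 shows how much rests on that library: it had 28.7, 27.3 and 165 in the triple mutant, against 145 and 130.0 in mut-14 smut-1. B0250.8 had 13.7, 10.9 and 97 in the triple mutant, against 224 and 177 in mut-14 smut-1. T26E3.7 had 7.17, 1.37 and 57.8, against 121 and 139.6 in mut-14 smut-1, and the lowest of these values is 1 read. Y48G1BM.8 had 1.30, 5.47 and 41.3 and Y57G11C.499 had 1.30, 1.37 and 35.1 in the triple mutant.

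Against prg-1, none of the 6 genes passed in generation 1 small RNA (limma), where 23.6% of all features were lower, and the log2 differences ran from -1.77 to -0.24. The count was also 0 at an unadjusted p under 0.05, with edgeR and with DESeq2. Without triple mutant library 3, 3 genes passed as lower, and without both that library and prg-1 library 1, 4 genes passed. The 4 were Y57G11C.499 (-2.21, limma adjusted p = 0.000995), Y48G1BM.8 (-1.44, limma adjusted p = 0.0486), B0250.8 (-1.04, limma adjusted p = 0.000556) and bath-45 (-0.61, limma adjusted p = 5e-04). The shares of all features in the fits that leave libraries out are not given here, so these counts cannot be called many or few. Scaled to library totals, the median of all features moved to 1.5, and all 6 differences stayed below that median, at -0.37 to 1.33. Leaving out single libraries turned 3 of the differences positive: Y53F4B.5 stood at 0.57 without prg-1 library 1, at 0.20 without triple mutant library 1 and at 0.02 without triple mutant library 2, bath-45 at 0.23 without prg-1 library 1, and T26E3.7 at 0.02 without triple mutant library 2.

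At the greater depth of generation 50, small RNA of all 6 genes fell in the triple mutant relative to mut-14 smut-1 (limma), beside 48.6% of all features. All features here include the piRNAs, so neither that share nor their median is one of genes alone. Median differences were -2.80 over the 6 genes and -0.71 over all features. Y53F4B.5 had 15.4, 18.7 and 28.5 in the triple mutant, against 667, 597 and 397 in mut-14 smut-1 (log2 difference -4.68 ± 0.26 SE, limma adjusted p = 6.56e-09). T26E3.7 had 30.7, 26.7 and 20.4, against 524, 536 and 383 in mut-14 smut-1 (log2 difference -4.16 ± 0.29 SE, limma adjusted p = 6.08e-08). These are the genes that retained the largest share of their wild-type small RNA in mut-14 smut-1. Both values use the same mut-14 smut-1 libraries, and the triple mutant was low for all 6, so the match is built in. bath-45 had 131, 116 and 118 in the triple mutant, against 393, 405 and 376 in mut-14 smut-1, the smallest of the 6 (log2 difference -1.68 ± 0.22 SE, limma adjusted p = 2.63e-05). B0250.8 had 66.6, 76.2 and 83.5, Y57G11C.499 had 28.2, 28.1 and 26.5 and Y48G1BM.8 had 15.4, 26.7 and 14.2 in the triple mutant, with log2 differences of -2.89, -2.25 and -2.71.

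Against prg-1, 1 of 6 genes fell in generation 50 small RNA (limma), beside 17.0% of all features, piRNAs included. That gene was again Y53F4B.5, with 15.4, 18.7 and 28.5 in the triple mutant, against 62.8, 40.7 and 38.2 in prg-1 (log2 difference -1.15 ± 0.26 SE, limma adjusted p = 0.00494). The other 5 overlapped between the groups, while 18.7% of all features were lower without overlap. They had log2 differences of -0.59 (bath-45, SE 0.22, limma adjusted p = 0.0705) to 0.21 (B0250.8, SE 0.20, limma adjusted p = 0.534). Without prg-1 line 2, 3 genes passed. Scaled to miRNA totals, 4 genes passed as lower. The shares of all features under these alternatives are not given here, so the counts cannot be called many or few.

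**Figure D4:**
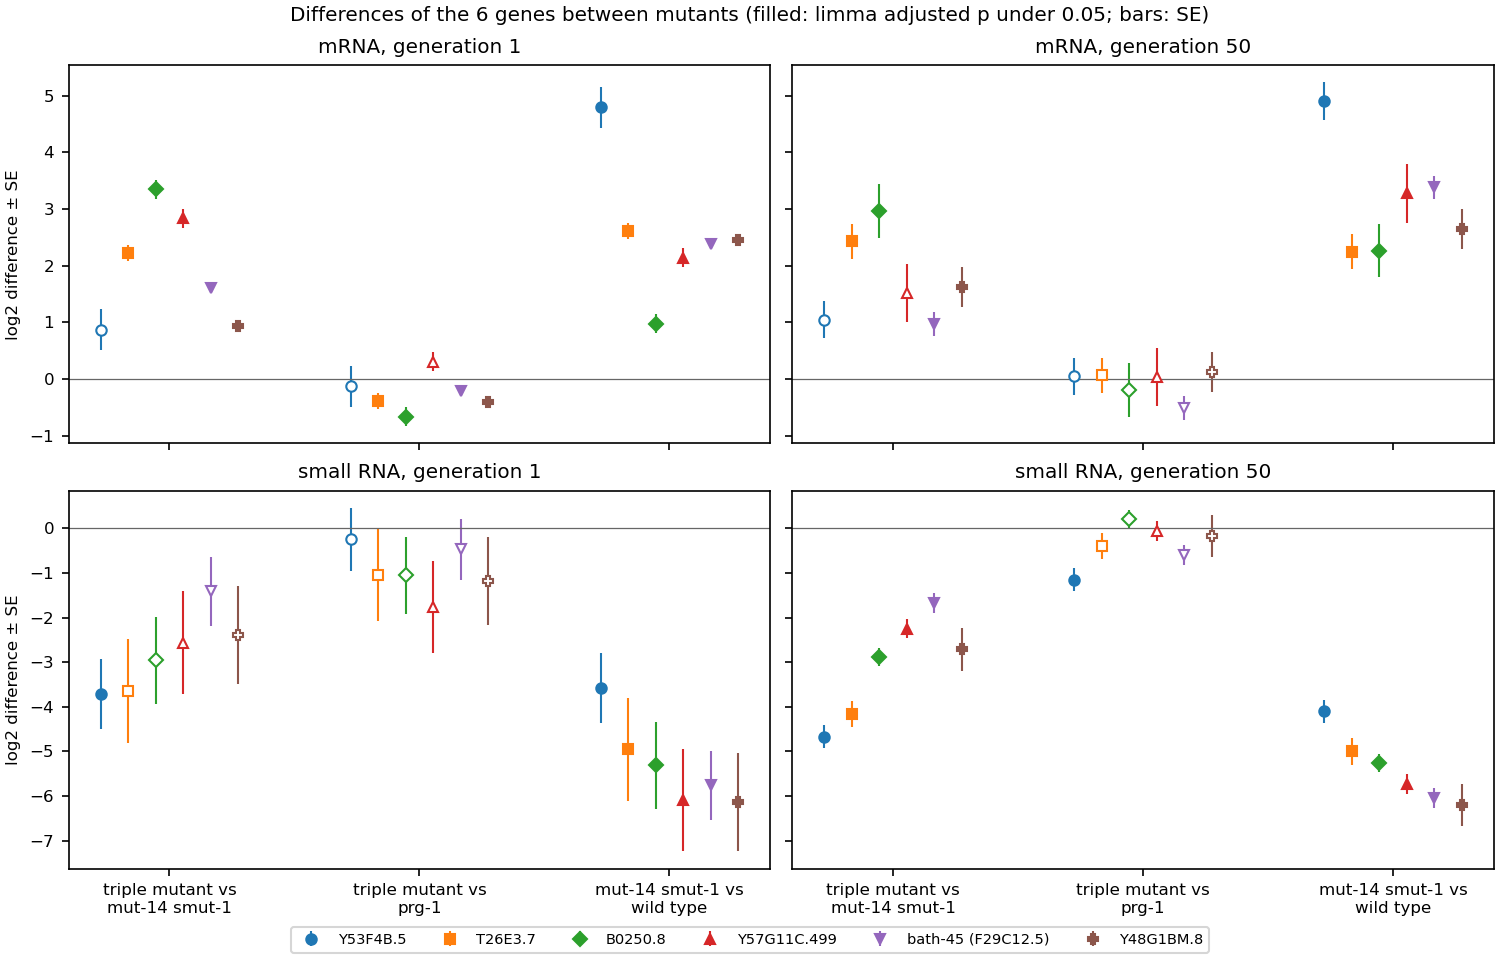
log2 differences ± SE of the 6 genes for the triple mutant relative to mut-14 smut-1, the triple mutant relative to prg-1, and mut-14 smut-1 relative to the wild type, in mRNA (top) and small RNA (bottom) of generation 1 (left) and generation 50 (right). Filled symbols passed limma's adjusted p under 0.05. Relative to prg-1 the triple mutant lies near 0 for mRNA in both generations, from -0.66 to 0.31.

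In the wild type, where these genes make little mRNA, polyA-selected RNA held less of it than total RNA. Of the 4 genes that passed the filter on low values, 3 were lower in polyA-selected RNA than in total RNA (limma), beside 10.8% of the 14570 features tested. Of all 6, 5 were lower in polyA-selected RNA without overlap, as were 15.8% of all features. bath-45 had 19.1, 28.8 and 23.6 in polyA-selected RNA, against 78.7, 98.2 and 78.3 in total RNA, and fell by 1.80 on the log2 scale (SE 0.20, limma adjusted p = 6.05e-06). B0250.8 had 9.56, 9.78 and 11.8, against 35.3, 19.1 and 22.0 in total RNA, and fell by 1.17 (SE 0.31, limma adjusted p = 0.0159). That call was lost without polyA-selected library 2 or without total RNA library 1 (limma adjusted p = 0.0547 and 0.104). Y48G1BM.8 had 50.4, 40.2 and 55.0, against 82.8, 73.6 and 86.5 in total RNA, and fell by 0.74 (SE 0.17, limma adjusted p = 0.00744). T26E3.7 had 10.4, 5.66 and 13.8, against 17.6, 27.3 and 17.9 in total RNA, and did not pass (log2 difference -1.05 ± 0.36 SE, limma adjusted p = 0.0563). Y53F4B.5, with 0.869, 0.515 and 0 in polyA-selected RNA and 5.43, 1.36 and 6.87 in total RNA, and Y57G11C.499, with 6.95, 4.63 and 5.90 in polyA-selected RNA and 9.50, 15 and 6.87 in total RNA, were below the filter.

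The nearest protein-coding genes on either side, by the order in RefSeq, were read from the same tables. Of 9 neighbours tested in generation 1 mRNA, 5 rose in prg-1 and none fell (limma), with log2 differences of -0.05 to 1.84, beside 25.6% of all features higher. At least 2-fold higher were ptp-5.2, next to Y57G11C.499, with a mean of 21.3 in prg-1 and 5.69 in the wild type (log2 difference 1.84, limma adjusted p = 7.77e-05), and B0250.7, next to B0250.8, with 462 in prg-1 and 214 in the wild type (1.11, limma adjusted p = 4.35e-09). B0250.7 was higher in generation 50 prg-1 too, with 677 in prg-1 and 192 in the wild type (1.79, limma adjusted p = 0.000356). Y48G1BM.6, next to Y48G1BM.8, rose by 0.66 in generation 1 and 1.94 in generation 50 (limma adjusted p = 1.66e-05 and 0.00184), yet its small RNA did not pass, with means of 2417 in prg-1 and 1882 in the wild type of generation 1. In generation 50 F29C12.6, next to bath-45, rose as well (3.84, limma adjusted p = 0.0194), where 7.41% of all features were higher. Y53F4B.43, next to Y53F4B.5, gained small RNA in prg-1, with 873 in prg-1 and 42.3 in the wild type of generation 1 (log2 difference 4.35, limma adjusted p = 0.000336) and 1540 in prg-1 and 76.3 in the wild type of generation 50 (4.31, limma adjusted p = 9.73e-08). Of 6 neighbours tested for small RNA in generation 1, 3 rose and 2 fell in prg-1 (limma), beside 27.9% of all features higher and 38.3% lower, and the 2 were gfm-1, next to bath-45 (log2 difference -1.30), and atp-1, next to T26E3.7 (-0.89). F29C12.6, next to bath-45, gained small RNA, with means of 11.1 in prg-1 and 0.772 in the wild type of generation 1 (log2 difference 2.86, limma adjusted p = 1.01e-05) and 771 in prg-1(tm872) and 2.64 in its wild type (7.90, limma adjusted p = 4.66e-08). Of 6 neighbours tested for small RNA in prg-1(tm872), 3 rose and 3 fell (limma), with log2 differences of -0.95 to 7.90, beside 34.2% of all features higher and 41.4% lower. Whether reads of adjoining or antisense transcripts were assigned by strand is not stated.

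Other genes of the pathway and of the bath-45 family were examined from lists chosen with earlier results known. fbxb-97, an F-box gene used as a silencing readout, rose in generation 1 prg-1 mRNA by 3.75 ± 0.11 (SE, log2, limma adjusted p = 6.03e-14) while its small RNA fell by 6.06 (SE 0.53, limma adjusted p = 3.43e-06). xol-1, the sex-determination switch gene, had small RNA that fell by 6.73 (SE 0.54, limma adjusted p = 1.97e-06), and its mRNA did not pass. Of the BATH genes other than bath-45, 27 were tested for small RNA in generation 1 prg-1, where 19 fell and 4 rose (limma), beside 38.3% of all features lower and 27.9% higher, with a median of -1.93 beside -0.10 over all features. Their mRNA was mixed: of 40 tested, 14 rose and 9 fell, beside 25.6% of all features higher and 32% lower, with a median of -0.01 beside -0.02 over all features, and with library totals 15 rose and 5 fell. bath-13 mRNA rose by 4.07 ± 0.11 (SE, limma adjusted p = 3.59e-14) and bath-20 by 2.00 ± 0.14 (SE, limma adjusted p = 5.56e-09). In generation 50 prg-1, 15 of 19 BATH genes had lower and 4 higher small RNA (limma). Of all features, piRNAs included, 57.3% were lower and 21.3% higher. Of 42 BATH genes tested for mRNA, 6 were higher and 1 was lower, beside 7.41% of all features higher and 3.80% lower.

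mRNA of the silencing machinery differed little between prg-1 and the wild type in generation 1. Of all features, 32% fell in prg-1 there (limma). Of 6 germline markers 5 fell, with a median of -0.23, and of 8 oocyte and eggshell markers 8 fell, with a median of -0.31; the part of tissue make-up in the counts that follow was not tested. Of 12 small RNA amplification genes tested, 12 fell in prg-1 (limma), with a median of -0.30, and 8 with library totals, with a median of -0.18. In generation 50 prg-1 none of these 12 passed, with a median of 0.04. Of 13 piRNA biogenesis genes, 8 fell and 1 rose in generation 1 prg-1, with a median of -0.16, and 5 fell and 2 rose with library totals. Of 11 WAGO genes, 3 fell and 1 rose, with a median of -0.10, and with library totals 1 fell and 3 rose, with a median of 0.02. Nuclear RNAi and heterochromatin genes fell in 8 of 10, and germ granule genes in 7 of 10, each with a median of -0.22, and with library totals in 4 of 10 and 3 of 10. The 6 genes, at 3.80 to 5.79, were picked for high mRNA in prg-1, so their sizes are no measure for these differences. Whether the differences of the machinery bear on the 6 genes was not tested.

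Tissue markers differed between the genotypes in mRNA. Summed mRNA of 35 major sperm protein genes in generation 1 was 26336 to 31955 normalized counts in the triple mutant, 7690 to 8537 in prg-1 and 17663 to 20798 in mut-14 smut-1, against 1820 to 2591 in the wild type. Wild-type total RNA of the polyA comparison, also at 72 h but scaled separately, gave 26756 to 31972 for the same 35 genes. The reason for that gap within the wild type was not tested. Summed mRNA of 8 oocyte and eggshell genes was 109497 to 123111 in the triple mutant, 146101 to 159941 in prg-1 and 113329 to 129385 in mut-14 smut-1, against 184745 to 201901 in the wild type. Of the sperm genes, 2 were at 0 in all prg-1 libraries and 2 in all wild-type libraries. For 6 germline genes, none of them at 0, the sums were 12459 to 14266 in the triple mutant, 15804 to 17514 in prg-1 and 11830 to 13125 in mut-14 smut-1, against 17578 to 18636 in the wild type. Muscle markers, 5 genes, summed to 44533 to 64391 in the triple mutant, 36841 to 50340 in prg-1 and 50018 to 72678 in mut-14 smut-1, against 27227 to 30605 in the wild type. Yolk genes of the intestine, 6 in number, summed to 510504 to 730923 in the triple mutant, 721505 to 992381 in prg-1 and 416309 to 623501 in mut-14 smut-1, against 816463 to 900692 in the wild type. Zygotic embryo genes, 7 in number, summed to 206 to 223 in the triple mutant, 241 to 264 in prg-1 and 170 to 227 in mut-14 smut-1, against 292 to 328 in the wild type. In whole animals fewer cells of a type and less RNA per cell cannot be told apart. In generation 50 the summed sperm mRNA was 10355 to 22880 in the triple mutant, 8733 to 22590 in prg-1 and 6399 to 18493 in mut-14 smut-1, against 45.2 to 8510 in the wild type. The part of tissue make-up in the results was not tested.

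Over 12 log2 differences from the wild type (mRNA and small RNA, 2 generations, 3 mutant genotypes), the genes most like the 6 were ranked by Euclidean distance to the mean profile of the 6 among 4838 genes tested in all. The nearest non-member was C32B5.6, at a distance of 2.76 beside 1.35 to 4.26 for the members and a median of 20.98 over all genes. In generation 1 prg-1, C32B5.6 had a log2 difference of 3.5 in mRNA and of -6.22 in small RNA. Next came C47G2.8 (4.46), F55A3.6 (4.67), linc-29 (5.19) and gpx-8 (5.46), all farther than the outermost member, Y53F4B.5. linc-29 is also one of the genes that kept their small RNA in prg-1(tm872). The 12 differences share their wild-type libraries, so they are not independent. The mean profile is that of the 6 genes, and the prg-1 differences among the 12 chose them. Their short distances were therefore fixed beforehand, and the ranking is a description.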

How the data were processed

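Messenger RNA and small RNA were sequenced from whole gravid adult C. elegans in 59 libraries, deposited as 6 tables. Per the labels' protocols, mRNA was depleted of ribosomal RNA, and small RNA of 16 to 30 nucleotides was treated with polyphosphatase. Per the labels, 3 of the mRNA libraries were also polyA-selected. The deposited values are a signal per feature, counts that the authors divided by a size factor per library. Which aligner and genome build were used is not given in the sources used here. In small RNA, whole reads were recovered from the steps of the values, 100% of them within 0.01 read, and depth is given from them. In mRNA, 94.76% to 97.44% of values lay within 0.1 of a whole read, so depth is approximate and no count model was run.

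Values were tested as log2(value + 1) with limma 3.58.1 in R 4.3.3, with the variance trend, 1 mean per group and all groups of a table in 1 fit. Features needed a value of 10 or more in as many libraries as the smallest group holds. p-values were adjusted by the Benjamini-Hochberg method over all features of a table, with a threshold of 0.05. A fold change on this scale understates the change of low values. The filter, fit and calls were checked on simulated data with groups of equal size and no library standing apart. That check does not cover generation 1 small RNA, where group sizes differed and a pair of libraries stood apart. edgeR 4.0.16 and DESeq2 1.42.0 were alternatives for small RNA, and other scalings, pseudocounts, filters, a replicate block and leaving out each library were tried throughout. Tables were made with pandas 2.3.3 and numpy 2.4.6 in Python 3.11.15, and plots with matplotlib 3.10.9.

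The genes named are the 6 members, the mutated genes, the nearest annotated protein-coding gene on each side, the 5 genes most like the members, and members of the lists (silencing readouts, BATH family, silencing machinery, tissue markers). The members and lists were chosen with earlier results of these data known. A number shared by replicates was not stated to pair them, and the deviations of same-numbered libraries correlated at -0.267 to 0.328, so the samples were treated as unpaired.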

Additional observations from a re-analysis of the deposited data

How the results depend on the processing

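Among differences of single genes, 945 values stayed the same under the alternatives that keep all libraries or drop a named pair. For tested contrasts this means that direction and side of the threshold were kept. For prg-1 against the wild type, which has no test, it means the same direction and a shift within the replicate spread. Of the rest, 22 became called, 13 lost the call, 20 moved beyond the replicate spread and 10 reversed. Count tests were run on small RNA alone. In generation 1 mRNA, the 4 genes called between the triple mutant and prg-1 were 2 with library totals and 2 to 4 with each library left out. In generation 50 mRNA, the 4 called between the triple mutant and mut-14 smut-1 were 2 with library totals, 2 without a filter, 2 with the replicate block, 0 with the 2 groups alone and 1 to 5 with each library left out. The replicate block changed no other count of calls by over 1.5 times. In generation 1 small RNA, the 1 gene called between the triple mutant and mut-14 smut-1 was 3 with the 2 groups alone, 3 with edgeR, 6 without both libraries that stood apart (chosen after seeing the data) and 0 to 6 with each library left out. Between the triple mutant and prg-1 the count of 0 became 4 without both libraries and 0 to 3 with each left out. In generation 50 small RNA, the 1 gene called between the triple mutant and prg-1 was 4 with miRNA totals, 2 without piRNAs and miRNAs, 2 with DESeq2 and 1 to 3 with each library left out. The shares of all features called under these alternatives are not given here. A change in a count thus cannot be told apart from more or fewer calls over all features. All reversals were of uncalled differences between the triple mutant and prg-1, and the cause was not tested. In generation 50 mRNA, library totals gave -0.068 for Y53F4B.5, -0.052 for T26E3.7 and -0.078 for Y57G11C.499, and leaving out each library gave -0.068 to 0.23, -0.093 to 0.26 and -0.11 to 0.29. In generation 1 small RNA, library totals gave 1.33 for Y53F4B.5, 0.44 for T26E3.7, 0.58 for B0250.8, 1.2 for bath-45 and 0.29 for Y48G1BM.8, and leaving out each library gave -0.95 to 0.57 for Y53F4B.5, -2.30 to 0.02 for T26E3.7 and -1.31 to 0.23 for bath-45. In generation 50 small RNA, library totals gave 0.031 for Y57G11C.499 and miRNA totals -0.49 for B0250.8, and leaving out each library gave -0.25 to 0.27 for Y57G11C.499 and -0.67 to 0.33 for Y48G1BM.8. Depth limits the generation 1 small RNA of the triple mutant, where a gene had as few as 1 read.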
